A study of Mus musculus with 2 samples.

Results

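The Genomic models of annotated genes were chosen from both deposited tables of transcript models: every model of an annotated gene on the 19 autosomes that carries the class Genomic. There were 6893 such models, with 34961 reads of 5517 genes, in replicate 1, and 5690 models, with 26162 reads of 4801 genes, in replicate 2. All classes together, the tables held 80416 and 74962 models. Both libraries are long reads of total RNA from gastrocnemius, a calf muscle made mainly of fast fibres. They belong to 1 untreated group, female B6CASTF1/J animals of 18 to 20 months, and 2 µg of RNA went into each. The labels call them biological replicates but give both the same donor record and do not say how many animals were used. Tests between the libraries therefore know counting error only, and the difference they measure may be technical.

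TALON, the program that named the models, compares the introns of a long read with annotated transcripts. A read whose introns all match a run of annotated ones is Known or, where it lacks the first or last exons, an incomplete splice match (ISM), while reads with new combinations of annotated splice sites or with new splice sites are called NIC and NNC. The Genomic class takes other reads that overlap an annotated gene. In general it can collect unspliced precursor RNA, genomic DNA and cDNA that began or stopped inside a transcript, and the class name does not tell these apart.

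Examples of 2 kinds of 3' end of these models are printed from GENCODE M21 transcripts on mm10. Many other ends were of neither kind or could not be read. The first kind is the end of an annotated last exon, which often carries the polyadenylation hexamer AATAAA or its variant ATTAAA shortly before the last base. Of the 20 genes with the most Genomic reads, 14 had a leading model with the same 3' end in both libraries and a readable sequence before it. In 10 of these the last 30 bases held a hexamer (capitals), and in 4 they did not. Of these 14, 7 are printed, because their models led the class in both libraries.
Apobec2 (chr17:48419231-48419260, minus strand): atagcaacatcAATAAAggaaataagtggt
Acta1 (chr8:123891769-123891798, minus strand): gcATTAAAgccagccattctgttttgctcc
Myh4 (chr11:67260417-67260446, plus strand): AATAAAttctgcagataattttgcaatcta
Tcap (chr11:98384924-98384953, plus strand): tagcactgcAATAAAtgctcagccatgttc
Klf9 (chr19:23168105-23168134, plus strand): aaaatAATAAAtgataaagATTAAAttgtt
Mb (chr15:77015487-77015516, minus strand): gtctcAATAAAatatcctgcgagtcctcaa
Cox6a2 (chr7:128205504-128205533, minus strand): atttttttttatataaggaaaatgtgatgt
The Cox6a2 window holds no hexamer, and its model ended 69 bases from the nearest annotated end in both libraries. It is therefore not an example of the first kind.

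The second kind is an end away from the annotated ends, directly before a run of A in the genome. At 37 places, both libraries had a model ending within 5 bases of the same position, over 50 bases from every annotated end of its gene, with at least 12 A among the next 20 bases. The 8 with the most reads, by the library with fewer, are printed as the last 10 bases of the model followed by the 20 bases after it, with the A of those 20 in capitals.
Zbtb7a (chr10:81151602-81151631, plus strand): ggctgaaaggAAAAAtAgAAAAAAAAcAAA
Pabpc4 (chr4:123282902-123282931, plus strand): aaaagaaaagAAAAgAAgAggAAAAAAAAA
Gm13008 (chr4:136005233-136005262, plus strand): tatagaggacAAAAAgAAAAAAAcAAAAAA
Gm26699 (chr6:38552874-38552903, minus strand): aaacttgtccAAAAAAAAAAAAAAAAAAAA
Cd80 (chr16:38498757-38498786, plus strand): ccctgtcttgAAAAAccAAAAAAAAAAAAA
Dnajc19 (chr3:34072214-34072243, minus strand): ccaagccataAAAAAAAAAAAAAAAAAAAA
Nos1 (chr5:117956142-117956171, plus strand): agtagtttatccAAAAAAAAAAAAAAAAAA
Wdr89 (chr12:75630910-75630939, minus strand): atgtatcttgAAAAAAAAAAAAgAAAtgtt
The model of Zbtb7a, which encodes a transcription factor, held 27 and 34 reads, that of Pabpc4, a poly(A)-binding protein, 24 and 13, and that of Nos1, the neuronal nitric oxide synthase of muscle fibres, 9 and 7. Those of Gm13008 and Cd80 reached past their gene, that of Dnajc19 was wholly intronic, and the other 5 lay within exons. All 8 windows held 15 to 20 A of 20.

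Genomic models took 3.17% of the reads of autosomal annotated genes in replicate 1 (95% Wilson interval 3.14% to 3.21%) and 2.73% in replicate 2 (2.69% to 2.76%), or 2.95% ± 0.317 (SD, n = 2). The share was higher in replicate 1 by 0.448 percentage points (2-sided Fisher's exact test over reads, Benjamini-Hochberg adjusted over 5 classes, p = 4.4e-80). Known models took 63.3% and 58.9%, ISM models 11.4% and 11.1%, NNC models 18.1% and 21.8%, and NIC models 4.04% and 5.42%. Autosomal annotated genes held 1101412 and 959730 reads. The spike-in RNAs, whose annotated transcripts have a single exon each, had 0 Genomic reads of 30211 and 7609. Myofibre markers summed to 295955 and 331751 CPM (reads scaled to the total of annotated endogenous reads), while 7 lists of markers of other cells summed to 3.58 to 325 CPM in replicate 1 and 5.12 to 451 CPM in replicate 2. Genes of the slow sarcomere summed to 880 and 5747 CPM, so the libraries also differed in slow fibre RNA; its part in the results was not tested.

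The class was broad and shallow. Of the autosomal genes with any read, 43.3% in replicate 1 and 39.0% in replicate 2 had a Genomic model, and 81.4% and 85.7% of those had only 1 such model. A single read made up 52.0% and 55.2% of the models, whereas 251 and 188 models held at least 20 reads and 40 and 28 at least 100. The 20 genes with the most Genomic reads in a library took 18.2% and 22.6% of the class. Over all classes, the 20 leading genes took 45.4% and 46.7%, so Genomic reads were less concentrated in a few genes. Protein-coding genes held 95.4% and 94.6% of the Genomic reads. Single-exon models held 99.0% and 98.7%. The 230 and 208 models with an intron had 348 and 328 reads, and 0 of them used an annotated splice site of their gene. This 0 may follow from the naming alone, since reads with annotated splice sites are put in the other classes. Of the 230 models of replicate 1, 34 had the same intron chain in a Genomic model of replicate 2.

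Model lengths had medians of 867 and 978 bases, with quartiles of 290 and 1987 bases in replicate 1 and 318 and 2301 in replicate 2. At the short end, 257 and 206 models were 1 base long and held 2914 and 1789 reads. Of these, 193 and 150 were the last base of an annotated transcript. The models of Acta1 and Apobec2, the 2 largest in replicate 1 and the 2 largest after Slc25a4 in replicate 2, were of this kind. A model's coordinates are thus not the span of its reads, which were not used here, and placement describes the models.

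**Figure D1:**
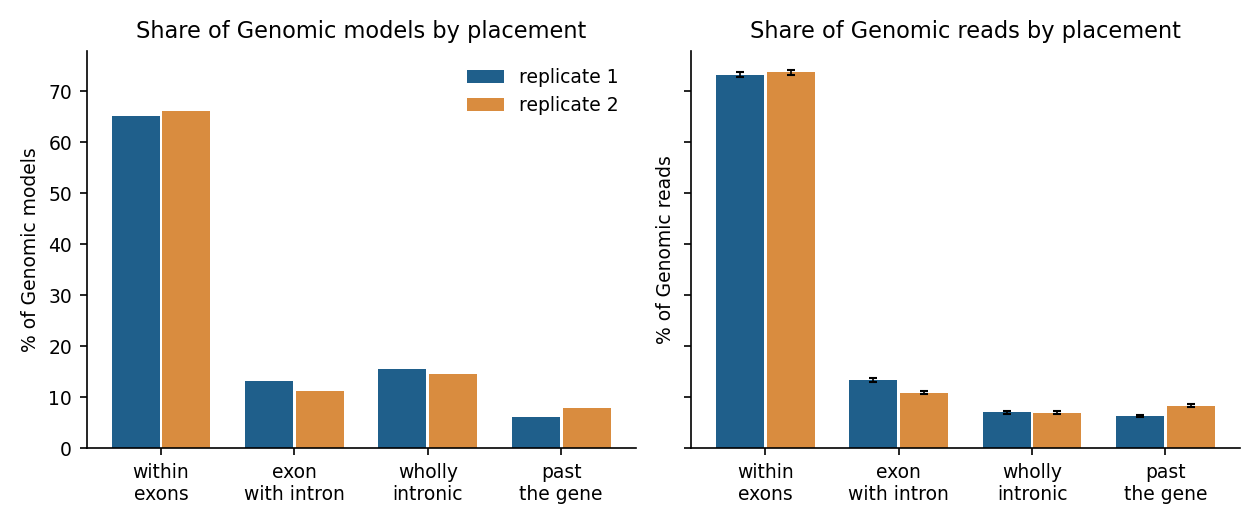
Share of Genomic models (left) and of Genomic reads (right) in each placement against the annotated exons of the model's own gene, in % on the vertical axis, for replicates 1 and 2; bars on the reads are 95% Wilson intervals. Models within exons took 73.3% and 73.8% of the reads, and the other 3 placements 6.30% to 13.4% each.

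Most Genomic reads were in models inside annotated exons. Models wholly within the exons of their gene took 73.3% of Genomic reads in replicate 1 and 73.8% in replicate 2 (mean 73.5% ± 0.322, SD, n = 2), and the libraries did not differ in this share beyond counting error (Fisher's exact test, adjusted p = 0.28 over 4 placements). Within that group, 3' UTRs held 92.8% and 91.1% of the reads, coding parts 5.37% and 7.20%, 5' UTRs 0.375% and 0.212%, and exons of non-coding transcripts 1.45% and 1.52%. A model was counted as 3' UTR, coding part or 5' UTR by where most of it lay. Of the reads within exons, 86.0% and 82.5% belonged to models that ended on the very base of an annotated transcript end.

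Models that combined exon and intron took 13.4% of Genomic reads in replicate 1 and 10.9% in replicate 2, a difference of 2.45 percentage points (Fisher's exact test, adjusted p = 9.2e-20). At least 1 annotated intron was held in full by 345 and 243 of the 904 and 636 models, with 70.7% and 56.0% of their reads, and the highest number of full introns in a model was 15 in each library. Models that reached past an end of their gene took 6.30% and 8.36%, here with the higher share in replicate 2 (a difference of -2.06 points, replicate 1 minus replicate 2, Fisher's exact test, adjusted p = 1.0e-21). Of these models, 322 and 339 passed the 3' end, by medians of 1091 and 1275 bases.

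Wholly intronic models took 7.04% and 6.97% of Genomic reads (mean 7.00% ± 0.046, SD, n = 2), and their shares differed by less than counting error (Fisher's exact test, adjusted p = 0.76). There were 1071 and 832 of them, with medians of 571 and 961 bases. The gaps between exons that held them had medians of 20090 and 22427 bases. Over the 17443 gaps of the same 1227 genes, the median was 1937 bases when each gap counted once and 46663 bases when each base of a gap counted once, so the gaps that held models were shorter than the gap of the middle intron base. The first gap of the gene held 30.1% and 31.6% of them, and first gaps made up 19.5% of the gap bases of these genes. An exon of another gene on the opposite strand overlapped 16.4% and 23.0% of the wholly intronic models, and an exon of another gene on the same strand 6.35% and 8.41%.

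**Figure D2:**
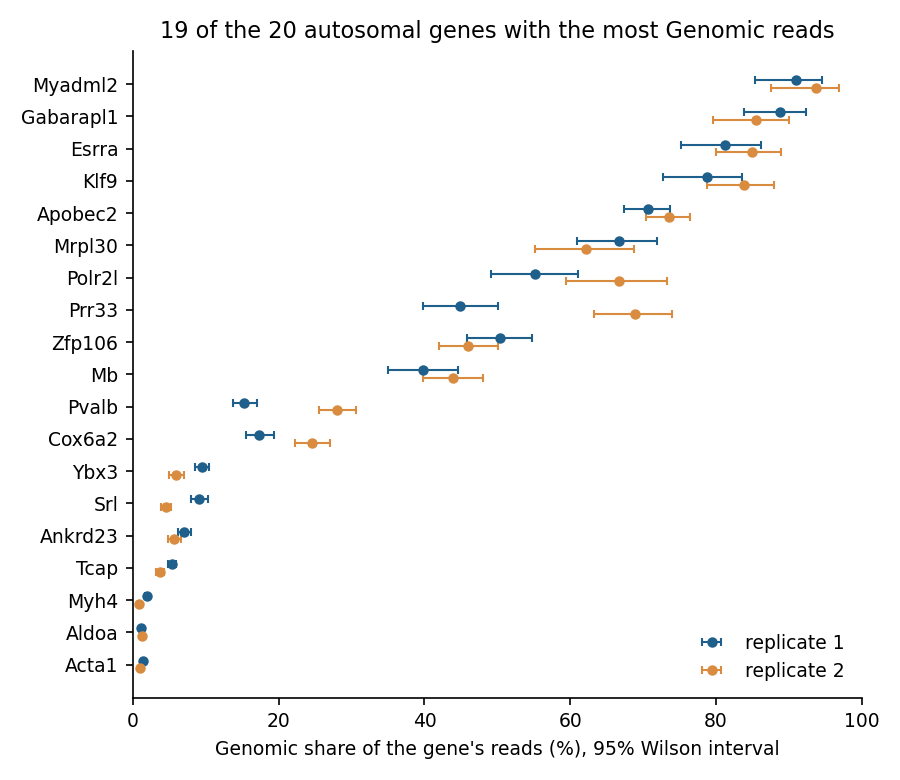
Genomic share of each gene's reads (horizontal axis, %) with 95% Wilson intervals in replicate 1 and replicate 2, for 19 of the 20 autosomal genes with the most Genomic reads by the library with fewer. Shares run from 0.778% for Myh4 to 93.7% for Myadml2, both in replicate 2, and the intervals of the libraries do not overlap for Pvalb, Prr33 and Srl, among others.

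Acta1, Myh4 and Tcap, 3 genes of the contractile apparatus, gave many Genomic reads at shares of at most 5.30%. Acta1, skeletal muscle alpha-actin, had 944 Genomic reads of 66373 in replicate 1 and 467 of 50333 in replicate 2, or 1.42% and 0.928%. Nearly all of them were in a 1-base model on its annotated 3' end. Myh4, the fast IIB myosin heavy chain, had 404 of 21229 and 232 of 29839, or 1.90% and 0.778%. Its leading model, with 403 and 232 reads, ended on the annotated end and held 5 full introns in replicate 1 (chr11:67257092-67260446) and 4 in replicate 2 (chr11:67258044-67260446). Tcap, the titin cap protein of the Z-disc, had 307 reads of 5796 and 190 of 5169, or 5.30% and 3.68%, all in a model of 1143 bases that kept its intron (chr11:98383811-98384953 in both libraries). All 3 shares were higher in replicate 1 (Fisher's exact test, adjusted p = 1.3e-12, 1.2e-26 and 0.0017). With ISM reads left out of the denominator, the difference for Myh4 was 0.73 points and no longer called (Fisher's exact test, adjusted p = 0.17). Actin and myosin genes have near-identical relatives, so reads may be split between copies.

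A second set of genes was read mostly as Genomic models in both libraries. Apobec2, a muscle member of the APOBEC deaminase family, had 561 Genomic reads of 794 in replicate 1 and 616 of 838 in replicate 2, or 70.7% and 73.5%. Klf9, a Krüppel-like transcription factor, had 170 of 216 and 203 of 242, or 78.7% and 83.9%, in a 3' UTR model of 2664 bases with the same coordinates in both libraries (chr19:23165471-23168134). Gabarapl1, an autophagosome protein, had 189 of 213 and 148 of 173, or 88.7% and 85.5%. Esrra, the oestrogen-related receptor alpha that drives oxidative genes, had 156 of 192 and 215 of 253, or 81.3% and 85.0%. Its model lay within the 3' UTR in replicate 1 and reached 143 bases past the gene in replicate 2. Mrpl30, of the mitochondrial ribosome, was at 66.7% and 62.2% in a model of 174 bases shared by both libraries. None of these 5 genes was called different between the libraries (Fisher's exact test, adjusted p from 0.997 to 1).

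Myoglobin (Mb), the oxygen store of muscle, had 157 Genomic reads of 395 and 241 of 549, or 39.7% and 43.9%. Zfp106, a zinc finger protein, had 248 of 493 and 272 of 591, or 50.3% and 46.0%, in a 3' UTR model of 674 bases found in both libraries. Both genes were likewise not called different (Fisher's exact test, adjusted p = 1.0 and 0.93). By contrast, Pvalb, the calcium buffer parvalbumin of fast fibres, was at 15.3% and 28.0%, and Cox6a2, the muscle form of a cytochrome c oxidase subunit, at 17.3% and 24.5%, both higher in replicate 2 (Fisher's exact test, adjusted p = 1.6e-15 and 0.00034). Prr33, a lincRNA gene, was at 44.9% and 68.9%, but replicate 1 held 81 single-exon ISM reads of it, and with these the shares were 67.2% and 68.9% and not called (Fisher's exact test, adjusted p = 1.0). Srl, which encodes sarcalumenin of the sarcoplasmic reticulum, was at 9.08% and 4.54%, and Ybx3, a Y-box protein that binds nucleic acids, at 9.46% and 5.93%, both higher in replicate 1 (Fisher's exact test, adjusted p = 2.6e-10 and 6.0e-05).

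The share was tested for 4057 genes with at least 20 reads in each library, of which 192, or 4.73%, were called different at an adjusted p below 0.05; 2.98% were higher in replicate 1 and 1.75% in replicate 2. On autosomes, 188 of 3953 genes (4.76%) were called, 118 higher in replicate 1 and 70 in replicate 2. The same test called 1.01% of genes for the Known share, 3.11% for ISM, 1.13% for NIC and 1.06% for NNC. Genomic reads were seen in both libraries for 1554 of the 3953 genes, in 1 library for 1186 and in neither for 1213. The median share was 1.41% in replicate 1 and 0.287% in replicate 2, and 49 genes were above 50% in both.

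**Figure D3:**
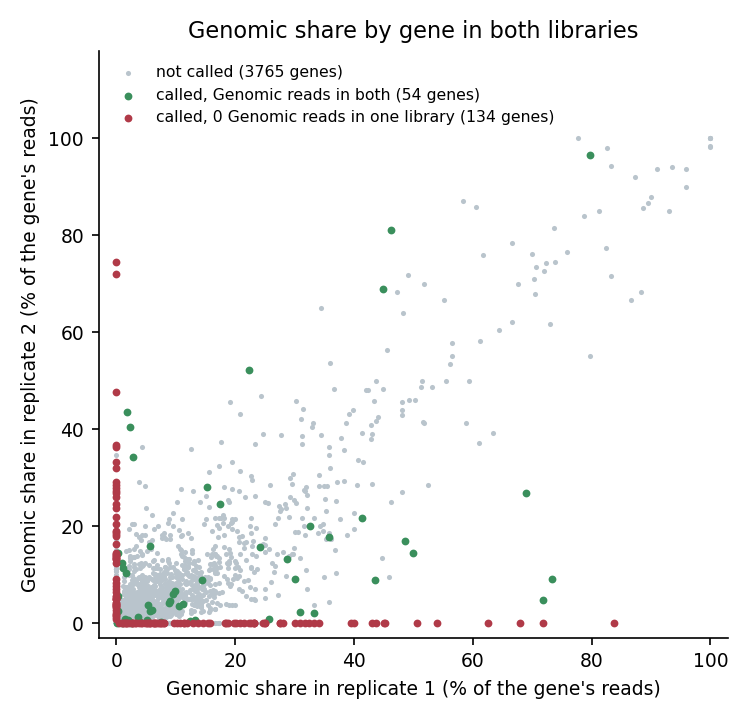
Genomic share of each of 3953 autosomal genes in replicate 1 (horizontal axis, %) and replicate 2 (vertical axis, %); red points are the 134 called genes with 0 Genomic reads in 1 library, green points the 54 called genes with Genomic reads in both. The red points lie on the axes, away from the diagonal cloud of the genes not called.

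Of the 188 called genes, 134 had 0 Genomic reads in 1 library. In 131 of these 134, that library held a single-exon ISM model of the gene, with at least 20 reads in 43. The share of all tested genes with such a model was not counted here. Some genes not called held such reads in both libraries, such as Ckm with 737 and 369 and Pkm with 116 and 49. Others not called, such as Tpm1, had 0 in both. Slc25a4, the ADP/ATP carrier of the inner mitochondrial membrane, had 0 Genomic reads of 9244 in replicate 1, which allows a level of up to 2.68 CPM, and 989 of 7954 in replicate 2. Replicate 1 held 1620 reads of Slc25a4 in a single-exon ISM model (chr8:46206797-46207620), and the Genomic model of replicate 2 lay inside it (chr8:46207138-46207620). Genomic and single-exon ISM reads together were 17.5% and 12.4% of the gene, the order opposite to that of the Genomic reads alone (Fisher's exact test, adjusted p = 2.5e-17). Plec, the cytoskeletal linker plectin, had 0 Genomic reads of 226 and 334 of 448. It had 173 and 0 single-exon ISM reads, and the sums were 76.5% and 74.6%.

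**Figure D4:**
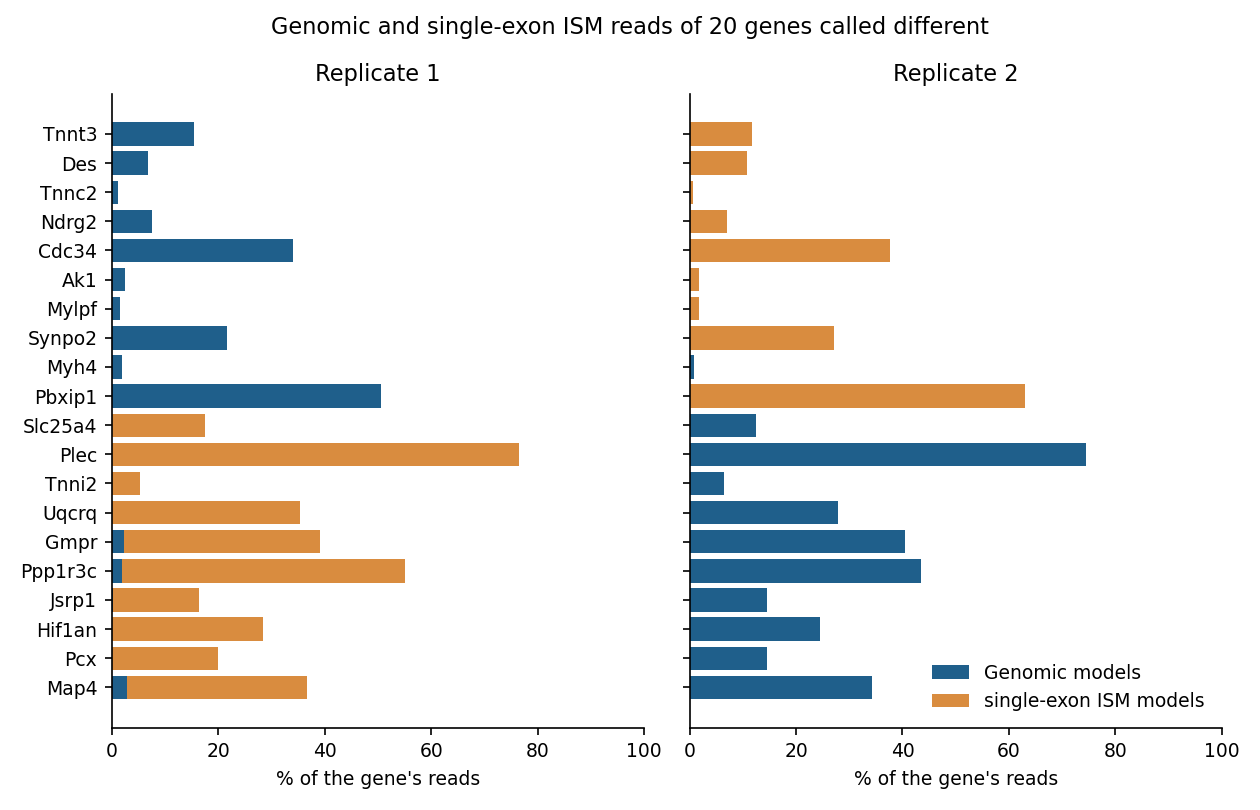
Reads in Genomic models and in single-exon ISM models as % of the gene's reads (horizontal axis), in replicate 1 (left) and replicate 2 (right). Shown are the 10 called genes of smallest p on either side among those whose shares differed at least 2-fold. Pvalb, called with a difference below 2-fold, is not shown and had 0 single-exon ISM reads in both libraries. Except in Myh4, where both libraries show Genomic reads alone, the library with few or no Genomic reads holds single-exon ISM reads.

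In the fast troponins and desmin, too, the library without Genomic reads held single-exon ISM reads. Tnnt3, fast troponin T, had 448 Genomic and 0 single-exon ISM reads of 2917 in replicate 1, and 0 and 212 of 1821 in replicate 2. Its models covered nearly the same bases (chr7:142512653-142516004 and chr7:142512532-142516008). Tnni2, fast troponin I, had 0 Genomic and 279 single-exon ISM reads in replicate 1, and 149 and 0 in replicate 2. Des, the muscle intermediate filament desmin, had 282 Genomic reads in a model of 2386 bases in replicate 1 and 356 ISM reads in a model of 713 bases in replicate 2. For Tnnc2, fast troponin C, the values were 318 Genomic reads in a model of 30 bases and 110 ISM reads in a model of 171 bases. With both classes summed, Tnnt3 was at 15.4% and 11.6%, Tnni2 at 5.31% and 6.42%, Des at 6.88% and 10.9% and Tnnc2 at 1.07% and 0.563%. The difference for Tnni2 was then no longer called and that for Des turned round (Fisher's exact test, adjusted p = 0.94 and 5.7e-07). Tnnt3 and Tnnc2 were still higher in replicate 1 (Fisher's exact test, adjusted p = 0.034 and 5.5e-07).

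Over all genes, counting single-exon Genomic and ISM reads together gave 48 called genes of 4057 (1.18%), 47 of them autosomal in place of 188, and 34 of the 188 were among them, 29 in the same direction. This count was added after the data were seen. Where both libraries held at least 20 reads at a place, the lengths of their models were within 10% of each other at 66 of 141 places named Genomic in both and at 4 of 48 places named Genomic in 1 library and ISM in the other. The longer model was over 2 times the shorter at 43 and 26 of them. Of the 251 single-exon Genomic models with at least 20 reads in replicate 1, 203 met a Genomic model of the same gene in replicate 2, 45 an ISM model, 1 a Known model, 1 a model of another gene and 1 an unannotated locus. Of the 187 in replicate 2, 160 met a Genomic model, 26 an ISM model and 1 a model of another gene. The unannotated locus was next to E030018B13Rik, singled out after its values were seen. In replicate 1, a model of 165 reads shared 1 base with that gene (chr7:63920539-63923537). Replicate 2 had a model of 82 reads within that span under an unannotated name.

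Matching by position gave the same picture of few deep and many thin places. Here a match is a Genomic model of the same gene in the other library, and models of other classes were not counted. At an overlap of at least 1 base, 46.5% of the models of replicate 1 and 55.6% of replicate 2 were matched. These held 72.5% and 74.5% of the reads. With an overlap of at least 50% of both lengths, 28.7% and 34.7% were matched, with 51.6% and 51.6% of the reads. Of the 1960 pairs that were each other's best match at that overlap, 97.1% had the same placement in both libraries. Their 3' ends lay within 5 bases of each other in 84.9% and their 5' ends in 52.1%. Among the wholly intronic pairs, 147 of 198 agreed in the 3' end to within 5 bases and 115 in the 5' end.

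Among the wholly intronic loci matched in both libraries, several of the deepest were short and nearly identical. Prr33, annotated as a lincRNA, had 162 reads in replicate 1 (chr7:142502740-142504713) and 155 in replicate 2 (chr7:142502740-142504065) in the first of its 3 gaps between exons, where exons of Tnnt3 lie on the opposite strand. The cAMP phosphodiesterase gene Pde4d had 52 and 29 reads in a model of 569 bases in each library (chr13:109440844-109441412 and chr13:109440849-109441417), inside a gap of 41291 bases. Kidins220, a scaffold protein of neurotrophin signalling, had 30 and 29 reads in models of 179 and 177 bases (chr12:25021363-25021541 and chr12:25021363-25021539). Anks1b had 42 and 18 reads in models of 322 and 320 bases in its first gap, of 122737 bases. No exon of another gene overlapped the loci of Pde4d, Kidins220 and Anks1b. The sequences after these ends were not used here, since no annotated exon covers them.

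Cfap77 and AC154200.1 were read only through such loci, and both loci began on the last base of a processed pseudogene, a gene copy made by reverse transcription of an mRNA. Cfap77, of the ciliary axoneme, had 128 of 128 reads in replicate 1 and 21 of 21 in replicate 2 in a model at chr2:28933430-28933610 (1 base shorter in replicate 2), whose first base is the 3' end of the pseudogene Gm13394 (chr2:28933610-28934609, minus strand). AC154200.1 had 88 of 88 and 45 of 45 at chr17:17345177-17345456 (again 1 base shorter in replicate 2), which starts on the 3' end of Oaz1-ps (chr17:17345456-17346140, minus strand). A start within 5 bases of a pseudogene's 3' end on the same strand was found for 12 of the 1071 wholly intronic models of replicate 1, with 240 reads. For replicate 2 it was found for 9 of the 832, with 85 reads. These counts include the loci of Cfap77 and AC154200.1, which held most of these reads in both libraries. Over the models within exons the counts were 0 and 2. Reads of a pseudogene and of its near-identical source gene can be exchanged in mapping, so the gene of origin of these reads is uncertain. That both loci adjoin a pseudogene was noticed after their values were seen.

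The deepest matched models of exon with intron, beside those of Myh4 and Tcap, included Tmem38a, the potassium channel TRIC-A of the sarcoplasmic reticulum, with 202 and 103 reads and 1 full intron in each library (chr8:72581276-72587282 and chr8:72582927-72587282). Myadml2 had 141 and 104 reads in a model of 2128 bases with 2 full introns (chr11:120646031-120648158 in both), and these were 91.0% and 93.7% of its reads. An exon of Myadml2os lies on the opposite strand there. Rabep2, a Rab5 effector, had 30 of 30 and 56 of 57 reads as Genomic, with 5 and 1 full introns, in a model that overlaps Atp2a1 on the opposite strand. Atp2a1, the fast calcium pump, had the most reads of the tested genes, 169580 and 186789 reads. Trim63, the ubiquitin ligase MuRF1 of muscle atrophy, had 31 and 21 reads in models that kept 1 and 2 introns.

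Past the annotated end, matched models ended at nearly the same base in several genes. Ankrd23, a titin-associated ankyrin repeat protein, had 238 reads in a model that reached 967 bases past its 3' end in replicate 1 (chr1:36529221-36530534). In replicate 2, 135 reads were in a model that reached 979 bases past it (chr1:36529209-36530534). An exon of Gm42417 lies there on the same strand. Prkaa2, a catalytic subunit of AMP-activated kinase, had 27 and 28 reads in models that reached 709 and 715 bases past its end, with no other gene's exon there. Lamp1, of the lysosome membrane, had 48 and 25 reads in the same model of 3193 bases in both libraries, 1804 bases past its end, where exons of Grtp1 lie on the opposite strand. Nmrk2, the muscle nicotinamide riboside kinase, had 22 and 27 reads in models that reached 3088 bases past its end in both libraries.

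**Figure D5:**
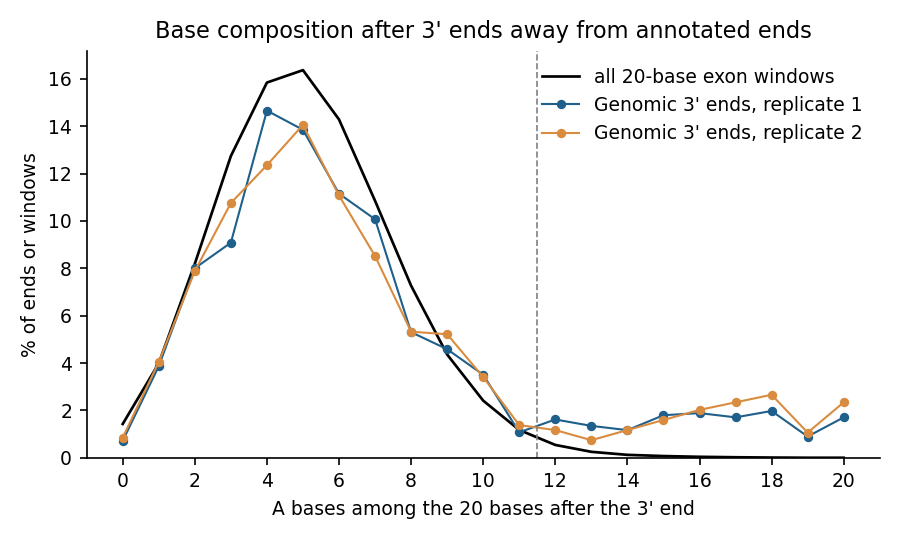
Number of A among the 20 bases after the 3' end (horizontal axis) against the share of ends or windows (vertical axis, %), for Genomic models ending over 50 bases from every annotated end in replicates 1 and 2 and for all 20-base windows within exons of the same genes; the dashed line marks the limit of 12 A. Right of it lie 14.1% and 15.1% of the Genomic ends that could be read and 1.09% of the windows.

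Among ends that could be read, those away from annotated ends were more often followed by A than windows of the same genes. Of models ending over 50 bases from every annotated end, the next 20 bases could be read for 1112 of 2888 in replicate 1 and 939 of 2303 in replicate 2. At least 12 A followed 157 of the 1112 (14.1%, Wilson interval 12.2% to 16.3%) and 142 of the 939 (15.1%, 13.0% to 17.6%). These held 12.5% and 10.5% of the reads of the models that could be read. The value over 27715390 windows of 20 bases in exons of the 7192 member genes was 1.09%. These windows were taken over all exon parts and were not matched to the 3' UTRs, which held most models within exons. Known models, at their annotated ends, had 6.53% and 6.19% among those that could be read. By placement, 12.7% and 11.7% of the Genomic ends within exons were rich in A (11.2% and 5.73% of their reads). The values were 15.1% and 12.5% for exon with intron and 27.6% and 33.7% for wholly intronic ends. Past the gene they were 10% (9 of 90) and 20.2% (20 of 99). The wholly intronic pair rests on 98 of 1071 and 104 of 832 models, those covered by an exon of another transcript, and does not speak for the rest. The pair of exon with intron rests on 152 of 638 and 120 of 419 models, and that past the gene on 90 of 395 and 99 of 424. They do not speak for the rest either.

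The hexamers AATAAA and ATTAAA, sought on the strand of the gene only and counted once per window of the last 50 bases, were held by 84.7% and 85.5% of the models within exons that ended exactly on an annotated end. Known models held them in 69.7% and 70.2%, and Known reads in 82.3% and 81.0%. Ends within exons but over 50 bases from an annotated end held them in 52.6% and 54.9% (39.5% and 27.9% of their reads), wholly intronic ends that could be read in 28.4% and 34.5%, and all 50-base windows of the member genes in 3.95%. These windows, too, were not matched by region. A hexamer match is a description of the letters and not of a used site.

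Genes with long last exons had higher Genomic shares. The median share was 0% in both libraries for 716 genes whose last exon was under 500 bases, 1.82% and 1.01% from 1000 to under 2000 bases, and 5.87% and 4.76% for 366 genes at 4000 bases and over. Spearman's rho of the share with last exon length over 3953 genes was 0.36 and 0.32, with gene length 0.26 and 0.21, and with the number of exons 0.067 and 0.045. These are descriptions across genes, which are not independent, and both libraries share the annotation.

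Among the gene lists, giant and scaffold proteins of the sarcomere had median shares of 5.11% and 3.91%, beside 1.41% and 0.287% over all genes. Of 21 tested, 7 were called higher in replicate 1 and 4 in replicate 2, and 5 of the 11 had 0 Genomic reads in 1 library. Over all tested genes, 4.73% were called, 2.98% higher in replicate 1 and 1.75% in replicate 2. With single-exon ISM reads summed, 9 of the 21 were called, beside 1.18% over all genes. Ttn, the giant spring titin, had 106 Genomic reads of 461 and 125 of 733, or 23.0% and 17.1% (Fisher's exact test, adjusted p = 0.19). With its single-exon ISM reads added, Ttn was at 29.5% and 17.2% and passed the test (Fisher's exact test, adjusted p = 0.00023). Neb, nebulin of the thin filament, was at 4.56% and 4.00%. Myom2, an M-band protein, was at 11.2% and 3.91% and Ldb3, a Z-disc protein, at 69.0% and 26.8%, both higher in replicate 1 (Fisher's exact test, adjusted p = 1.9e-13 and 2.2e-16). With single-exon ISM reads added, Ldb3 was at 69.0% and 48.5%.

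Fast sarcomere genes were called for 7 of 17 members, 6 higher in replicate 1 and 1 in replicate 2, and 5 of the 7 had 0 Genomic reads in 1 library. Over all tested genes, the shares were 4.73% called, 2.98% higher in replicate 1 and 1.75% in replicate 2. Slow sarcomere genes were called for 0 of 10 by Fisher's exact test. Calcium and triad genes had 4 of 15 higher in replicate 1 (2.98% over all genes) and 3 in replicate 2 (1.75%). Jph2, junctophilin of the triad, was at 43.0% and 39.0%, and Ryr1, the calcium release channel, at 1.70% and 0.195%, but at 1.70% and 1.27% with single-exon ISM reads, a difference that was not called. Glycolysis and kinase genes had 5 of 20 higher in replicate 1 (2.98% over all genes) and 0 in replicate 2 (1.75%), among them Ak1, adenylate kinase, at 2.40% and 0.020% (2.40% and 1.67% with single-exon ISM reads, not called). Respiratory genes had 3 of 20 in each direction (4.73% called over all genes), 4 of the 6 with 0 Genomic reads in 1 library. With single-exon ISM reads summed, 4 fast sarcomere, 4 calcium and triad, 5 glycolysis and kinase and 2 respiratory genes were called, beside 1.18% over all genes. Not all of them had been called before. The test can call smaller differences in genes with more reads, so counts in lists with deep genes depend on depth.

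Ribosomal protein genes were nearly free of Genomic reads, with 3 and 5 reads over 17 genes and 0 called (4.73% over all genes). RNA-binding protein genes known for introns kept in the nucleus had medians of 2.86% and 5.16% over 17 tested genes and 0 called (4.73% over all genes). The highest in replicate 1 were Luc7l2, a splicing factor, at 30.9% and 13.5%, and Hnrnpa2b1, a ribonucleoprotein, at 12.2% and 6.47%. Clk4, with 45 and 27 reads, and Srsf4, with 43 and 39, had 0 Genomic reads in both libraries. Few reads leave the test little power to call such genes. Only 2 of 13 nuclear long non-coding RNA genes had enough reads, Neat1 with 2 and 0 Genomic reads and H19 with 1 and 4. Zfand5, the single tested gene of the list for polyadenylation inside introns, was at 3.06% and 4.07%. Of 14 tested genes of protein breakdown and stress, 1 was called: Pdk4, the pyruvate dehydrogenase kinase, with 36 Genomic reads of 290 and 5 of 1047. Replicate 2 had 96 single-exon ISM reads of Pdk4, and with them the shares were 12.4% and 9.26% and not called. Fbxo32, the ubiquitin ligase atrogin-1, was at 27.3% and 24.1%.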

How the data were processed

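Long-read RNA libraries of 1 group, biological replicates 1 and 2, were used. The deposited values are raw read counts per transcript model, 1 table per library, with the exon number and length of each model. The deposited annotations give 1-based model positions on mm10 over GENCODE M21, per the file headers and the source column, which names TALON. For aligner, filters and versions, the sources used here name none. Depth was 1117891 and 975696 reads of annotated endogenous genes, the denominator of CPM. The members and gene lists were chosen with earlier results of these data known.

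Each model was placed against the union of its gene's annotated exons: within exons, exon with intron, wholly intronic or past the gene. Shares were compared between libraries by Fisher's exact test, 2-sided, adjusted after Benjamini-Hochberg (genes with at least 20 reads in each library, over all chromosomes). edgeR's quasi-likelihood fit needs replicates within sides and was not possible. Wilson intervals (95%) and floors (3 counts) cover counting error only. Genes named are the 20 with the most Genomic reads and the 10 with the highest share, the 10 smallest p in each direction among calls differing at least 2-fold, the 10 deepest matched loci of each placement outside exons, and list members; not all are printed, and some results are not reported here. Sequence was read from M21 transcripts where an annotated exon covers it; the genome sequence was not used here. The test was tried on simulated counts that held counting error only. Changes of class name between the libraries were not simulated. Alternatives covered the denominator, class names, read minimum, exon set, overlap and A limit. Python 3.11.15, pandas 2.3.3, scipy 1.17.1 and statsmodels 0.14.6 were used.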

Additional observations from a re-analysis of the deposited data

Results flagged for a closer look

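Genomic reads also lay outside the autosomal annotated genes. On the X chromosome, annotated genes had 841 Genomic reads in 166 models in replicate 1 and 654 in 141 models in replicate 2, or 6.84% and 5.99% of X-linked reads, above the 3 counts that a count of 0 allows. Models of unannotated genes with the class Genomic held 521 reads in replicate 1 and 403 in replicate 2. Mitochondrially encoded genes had 1 Genomic read of 4039 and 0 of 4943.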

How the results depend on the processing

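No paired analysis was possible because the replicate numbers only name the libraries of 1 group. The total share stayed higher in replicate 1 under all 7 alternatives, by 0.411 to 0.787 percentage points, and the placements within exons, exon with intron and past the gene kept direction and side of the threshold under the 4 alternatives run; the intronic share, not called, turned to -0.017 points with models of at least 5 reads. Called genes numbered 188 at 10 reads, 158 at 50, 157 without ISM reads and 174 at 2-fold, but 25 when a place with another class in either library was left out (19 shared) and 47 with single-exon Genomic and ISM reads summed. In that sum, differences (replicate 1 minus 2, points) of named genes turned to -4.00 for Des, -3.54 for Cdc34, -0.099 for Mylpf, -5.90 for Synpo2, -12.4 for Pbxip1, 5.09 for Slc25a4, 2.00 for Plec, 7.53 for Uqcrq, 10.98 for Ppp1r3c, 1.89 for Jsrp1, 4.21 for Hif1an, 5.38 for Pcx and 1.69 for Map4, of which Des and Slc25a4 were still called and the other 11 had adjusted p from 0.14 to 1 (Fisher's exact test); without such places they turned to -0.020 for Ak1, 0.661 for Ppp1r3c and 0.245 for Jsrp1. These follow from the reads each alternative adds or drops. Matched models averaged 31.7% at 50% overlap, 51.0% at any base, 21.3% at 80% and 55.7% with at least 5 reads. Among ends that could be read, those rich in A averaged 14.6% at 12 A, 12.2% at 14 A and 19.3% at 10 A. At this depth, 1213 of the 3953 tested autosomal genes had 0 Genomic reads in both libraries.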
